A study of Drosophila melanogaster with 18 samples.

Results

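The left arm of chromosome 2 carried 122 of the 749 barcoded reporters in the table, or 16.3%. They were the reporters whose deposited chromosome was 2L and whose position lay before 21 Mb in the dm3 assembly, so the end of the arm next to the centromere, with a further 9 reporters, was left out. The rule used only chromosome and position and no measured value, though it was set with earlier results of these data known. The reporters came from a TRIP pool, in which many reporters are integrated in parallel, of Kc167 cells, a Drosophila line derived from embryos. Each reporter held GFP under the copper-inducible metallothionein promoter next to 5 GAL4 binding sites, and a random barcode in its transcript told 1 integration from another. Every sample was the same pool, with about 0.3 integrations per cell, induced with 0.5 mM CuSO4 and sorted for mCherry at day 2 after transfection with 1 of 4 plasmids driven by an actin promoter. The control, GAL4, was the GAL4 DNA-binding domain (DBD) with a V5 tag. GAL4-ACF1 was that domain and tag fused to ACF1, ACF1 was V5-tagged ACF1 without the DBD, and GAL4-HP1 was the domain and tag fused to HP1a. Each condition had 2 replicates, each with a cDNA and a gDNA library. Whether the replicates were technical, as the series text has it, or biological, as in the study's methods, was not settled, and p-values measure the spread between these samples, which may be technical. Only reporter barcodes were sequenced, so the cell line was not checked against marker genes.

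ACF1 is the signature subunit of the nucleosome sliding complexes ACF and CHRAC, in which the ATPase ISWI moves nucleosomes along DNA. HP1a binds methylated histone H3 in heterochromatin and lowers the activity of many reporters to which it is tethered. A promoter inserted at random in a genome takes up part of the activity of its surroundings, which is why 1 reporter sequence can be read out at very different levels across an arm.

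The reporters were distinguished by 21 nt barcodes. Those of the 7 reporters that passed the test against GAL4 with GAL4-ACF1 come first, each named by its position on 2L and its orientation. Capitals mark the whole barcode.
Reporter at 5570520, minus: GGTCAGCAGCGCTGGAGGGTG
Reporter at 13865484, minus: CCTAGTGGGACGAGGATGTAG
Reporter at 14457104, plus: CAGGGCTGAATACGTGCAGGT
Reporter at 14609137, plus: TCAGGGACATATGGCTCGACC
Reporter at 15024634, minus: CGCTCGAGGTAAGATGCAGAT
Reporter at 15543740, minus: ATCGTGTAACGTACCTTGATA
Reporter at 17957239, plus: GTGGAACCTGGCAGCTTCGAG

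The next 4 barcodes belonged to reporters that were well covered with GAL4 but had no cDNA read in either GAL4-ACF1 library. The last 2 are those with the most expression in GAL4 and with the most cDNA reads in every library.
Reporter at 4361232, plus: GTTAGTCTGACATCCGGCTTG
Reporter at 12282921, minus: GAATCCTAAATTTTGGTTACT
Reporter at 12349540, minus: CTGTTGCGATTGGGTCTTTCT
Reporter at 15172916, plus: TTGTACGCTATGCAGGAGGCC
Reporter at 1690094, plus: TCGGTGTGGGATGCGAATTAC
Reporter at 9997212, plus: GAAACGAATGAACGAGTACGA

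The 122 reporters ran from position 122866 to 20991427, with 59 in plus and 63 in minus orientation. Neighbours were a median of 118602 bases apart. The closest pair lay 2536 bases apart, and the widest gap, 1023693 bases, fell between 10052862 and 11076555. The GC content of the barcodes went from 23.8% to 81.0% with a median of 52.4%, and each 2L barcode differed from every other barcode of the table at 6 or more of its 21 bases. Of the reporters around the 21 Mb bound, the last inside, at 20991427, had 1.46 and 0.375 expression units in the GAL4 replicates and the first outside, at 21000965, had 4.07 and 3.95. Expression here is the deposited ratio of cDNA to gDNA counts of a replicate, times 1 scaling factor for each library that the authors set, partly from a 2.5% spike-in of other barcoded cells.

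The library totals were 2616438 to 4181903 counts for cDNA and 1535023 to 2860908 for gDNA. Reporters on 2L took 14.5% to 15.7% of the gDNA counts and 4.11% to 5.61% of the cDNA counts. The lowest gDNA count of a 2L reporter was 98. A single reporter, at 9997212, had the most cDNA counts of the arm in all 8 libraries. It held 12.5% and 15.2% of the 2L cDNA counts in the GAL4 replicates and 29.4% and 30.6% in the GAL4-ACF1 replicates. A share of cDNA counts on the arm therefore leans on that site, and medians over reporters are used below.

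Reporters on 2L were read out at low levels for a large arm. In GAL4 the median expression of the 122 reporters was 23.0 in replicate 1 and 17.9 in replicate 2, while the 538 reporters on 2R, 3L, 3R and X, without the ends next to the centromeres, had medians of 32.5 and 29.2. Of these arms X was the nearest to 2L, with GAL4 medians of 27.3 and 19.2. The median was 5.30 and 2.83 with GAL4-ACF1 on 2L, against 10.3 and 10.2 on the other arms. ACF1 gave 12.2 and 9.16 on 2L and 29.1 and 17.6 elsewhere. The 2L medians with GAL4-HP1 were 6.94 and 4.69, and those of the other arms were 14.5 and 8.15. In every one of the 8 libraries the 2L median was therefore the lower of the pair.

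Among reporters with expression above 0 in all 4 conditions, which were 101 on 2L and 479 on the other arms, the log2 median on 2L was 0.59 and 0.72 units below that of the other arms in GAL4 (log2 differences of -0.59 and -0.72). GAL4-ACF1 gave -0.88 and -0.87, ACF1 gave -0.78 and -0.52, and the GAL4-HP1 libraries were at -0.56 and -0.58. Taken arm by arm, 2L was below 2R, 3L and 3R in 8 of 8 libraries and below X in 5 of 8. All libraries read the same integration sites, so the 8 values repeat 1 draw of sites and give no test of the arm itself.

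A smaller share of the 2L reporters than of the others was highly expressed. When the tested reporters of the whole table were cut into quartiles of GAL4 expression, at 14.0, 38.4 and 101, the lowest quartile took 50 of the 122 reporters on 2L, or 41.0%, and 160 of 538 on the other arms, or 29.7%. The highest quartile took 20 (16.4%) on 2L and 126 (23.4%) on the other arms. Of the 100 reporters with the most GAL4 expression, 11 were on 2L, and of the top 50 there were 3. The best placed was 12th of 749, with a mean of 967 against 7209 for the highest reporter in the table. These shares are descriptions of the sites that the pool happened to hold and carry no test.

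The spread between single reporters was wide. The reporter at 1690094 had 758 and 1175 expression units in the GAL4 replicates, 526 and 279 with GAL4-ACF1, 2118 and 1502 with ACF1, and 714 and 149 with GAL4-HP1. Both GAL4-ACF1 values were below both GAL4 values and both ACF1 values were above them, but neither difference passed the test (edgeR, adjusted p = 0.251 for GAL4-ACF1 and 0.742 for ACF1). The first reporter of the arm, at 122866, was at 690 and 224 in GAL4, 423 and 375 with GAL4-ACF1, 581 and 812 with ACF1, and 242 and 169 with GAL4-HP1. Its GAL4 replicates enclosed both GAL4-ACF1 values. The third in rank, at 7223544, had GAL4 replicates of 73.9 and 657, so its place rested on 1 replicate. At the other end, the reporters at 2684192, 20991427 and 2687734 had GAL4 values of 0.787 and 0.961, 1.46 and 0.375, and 1.40 and 1.59.

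Replicates of 1 condition were compared over the reporters above 0 in both of its libraries. On 2L these numbered 116 in GAL4, 81 in GAL4-ACF1, 96 in ACF1 and 99 in GAL4-HP1. Reporters at 0 in 1 replicate alone dropped out, so the values do not cover that part of the spread. The median absolute log2 difference on 2L was 0.885 in GAL4, 1.01 in ACF1, 1.24 in GAL4-ACF1 and 1.25 in GAL4-HP1. The same reporters, which are not independent replicates, were used to correlate log2 expression in replicate 1 with that in replicate 2. Pearson's r on 2L was 0.768 in GAL4, 0.746 in GAL4-ACF1, 0.821 in ACF1 and 0.661 in GAL4-HP1. On the other arms r, by the same rule, was 0.846, 0.815, 0.812 and 0.777. Reporters on 2L had fewer cDNA counts, with medians of 563 and 405.5 in the GAL4 replicates and 86.5 and 108.5 in the GAL4-ACF1 replicates, against 927 and 731 and 200 and 286.5 on the other arms. The part of depth in these r values was not tested.

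GAL4-ACF1 was compared with GAL4 to ask what tethered ACF1 did to reporters along the arm. The log2 fold change of a reporter was taken between the mean expression of both replicates, with no pseudocount, over the 101 reporters that passed the filter. Its median on 2L was -1.66, with quartiles of -3.18 and -0.44, and 85 of the 101 reporters were below GAL4 (84.2%). A total of 41 (40.6%) were lower by at least 4-fold. With replicate 1 alone the median was -1.63 and with replicate 2 alone it was -1.19 (mean of -1.41 ± 0.309, SD, n = 2), over the reporters above 0 in both libraries of the pair. The median over the whole table was -1.44 and that over the other arms was -1.33, with 84.6% of reporters lower.

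The log2 median of the 2L reporters was 2.80 and 2.99 in the GAL4-ACF1 libraries and 4.70 and 4.50 in the GAL4 libraries. The groups did not overlap and differed by -1.70, which in an exact two-sided permutation test of 2 libraries against 2 gives p = 0.333, the smallest this design allows. This distance rests on the authors' scaling between libraries. A comparison of 2L with the other arms inside a library does not, and it was -0.87 ± 0.0098 in GAL4-ACF1 and -0.66 ± 0.0894 in GAL4 (SD, n = 2 each). The change of -0.22 again had p = 0.333 in the exact permutation test. The same difference taken as medians of fold changes was -0.32 over both replicates. Against GAL4 replicate 1 it was -0.36 with GAL4-ACF1 replicate 1 and -0.48 with GAL4-ACF1 replicate 2. Against GAL4 replicate 2 it was -0.05 and 0.02 in the same order. Its size and sign thus depended on the libraries compared, and it varied more with the GAL4 library than with the GAL4-ACF1 library. By arm the median log2 fold change was -1.02 on 2R, -1.24 on 3R, -1.34 on 3L and -1.78 on X. The place of 2L among the arms differed between replicates, with 2L at -1.63 and X at -1.40 in replicate 1, and 2L at -1.19, 3L at -1.28 and X at -1.49 in replicate 2.

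Many 2L reporters had no cDNA read with GAL4-ACF1. Reporters at 0 numbered 32 of 122 in replicate 1 (26.2%, 95% Wilson interval 19.2% to 34.7%) and 25 in replicate 2 (20.5%, 14.3% to 28.5%). In the GAL4 libraries 3 and 4 were at 0 (2.46% and 3.28%). ACF1 had 16 and 17 (13.1% and 13.9%) and GAL4-HP1 had 18 and 9 (14.8% and 7.38%). The GAL4-ACF1 shares lay above those of every other condition, and on the other arms they were 21.7% and 13.9%, inside or just below the 2L intervals. These intervals treat the reporters as independent draws, which they are not, and do not cover the spread between replicates. Barcodes were read without molecular identifiers.

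In GAL4-ACF1, 16 of the 2L reporters were at 0 in both replicates (13.1%). The share was 11.2% in the whole table, 8.92% on the other arms and 12.2% on 3L. ACF1 had 7 such 2L reporters (5.74%, against 4.27% in the table), GAL4-HP1 had 4 (3.28% against 3.07%) and GAL4 had 1 (0.82% against 1.07%). The 2L shares were thus near those of the table. With 21 reporters at 0 in both replicates of some condition, 101 of 122 remained for the fold changes, and 13 of those left out were at 0 in GAL4-ACF1 alone. Those left out had low GAL4 expression, with a median of 5.31 and a highest value of 56.8, against a median of 30.0 among those kept. The median fold changes with GAL4-ACF1 are therefore taken without the reporters that had no reads there. By quartile of GAL4 expression, 12, 3, 1 and 0 of the 16 reporters were in the lowest to the highest quartile.

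Among these 16, 9 were well covered, with 50 or more cDNA counts in both GAL4 libraries and 50 or more gDNA counts in both GAL4-ACF1 libraries. The reporter at 12282921 had 515 and 263 cDNA counts in the GAL4 replicates, or 77.4 and 36.2 expression units, and 0 and 0 with GAL4-ACF1, although its gDNA gave 597 and 762 counts there. It was at 6.93 and 4.43 in the ACF1 libraries and at 8.98 and 17.8 in those of GAL4-HP1, so every value of the other conditions lay below both GAL4 values. Set against a floor of 3 counts over both libraries, the limit that a count of 0 allows, it was at least 221-fold lower with GAL4-ACF1. The reporter at 12349540 had 181 and 165 GAL4 counts and none with GAL4-ACF1, at least 76.3-fold lower, and it had 0.154 and 0 expression units with ACF1. The reporter at 15172916 had 455 and 110 GAL4 counts and was at least 209-fold lower. That at 4361232 had 560 and 86 and was at least 104-fold lower, while with ACF1 it gave 26.7 and 7.79 expression units against 39.8 and 9.45 in GAL4. These bounds cover counting error and not the spread between replicates.

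Each reporter was also tested by quasi-likelihood in edgeR, on its counts, for a change in cDNA beyond that in gDNA. P-values were adjusted by Benjamini-Hochberg over all 642 tested reporters of the table, and a reporter passed at an adjusted p under 0.05. Because each library was sized by its column total, this test measures a change relative to the rest of the library. Against GAL4, 7 of the 101 tested 2L reporters passed with GAL4-ACF1 (6.93%), all lower. Of all 642 reporters 42 passed (6.54%), 41 of them lower (6.39%), so the share on 2L was near that of the table. Unadjusted p-values were under the threshold for 26 on 2L (25.7%) and 169 in the table (26.3%). The number on 2L was 0 when either GAL4 replicate was left out and 15 when GAL4-ACF1 replicate 2 was. Each of the 7 passed in 5 to 10 of the 11 or 12 alternative settings in which it was tested, and its fitted value was below 0 in every one of them.

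The reporter at 13865484 was well covered, with 5330 and 4592 cDNA counts in the GAL4 libraries and 503 and 582 in those of GAL4-ACF1. Its expression was 73.9 and 83.1 in GAL4, 7.38 and 5.41 with GAL4-ACF1, 26.6 and 28.8 with ACF1, and 16.9 and 18.5 with GAL4-HP1. Replicates lay close together, no 2 conditions overlapped, and GAL4-ACF1 gave the lowest pair. Its fitted log2 fold change with GAL4-ACF1 was -3.43 ± 0.515 (SE, edgeR, adjusted p = 0.00315). With ACF1 it did not pass (adjusted p = 0.237).

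The reporter at 14457104 had 6.51 and 9.58 in GAL4, 0.287 and 0.388 with GAL4-ACF1, 1.36 and 0.612 with ACF1, and 2.63 and 0.604 with GAL4-HP1. All 6 values with a fusion or with ACF1 were below both GAL4 values, and the GAL4-ACF1 pair was the lowest. Its fitted log2 fold change was -4.38 ± 0.624 with GAL4-ACF1 (edgeR, adjusted p = 0.00315) and -3.34 ± 0.609 with ACF1 (adjusted p = 0.0308). It was the only 2L reporter past the threshold with ACF1, which lacks the DBD, and that call was lost when any 1 of the GAL4 and ACF1 replicates was left out.

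At 14609137 the GAL4 values were 15.1 and 9.15 and the GAL4-ACF1 values 0.418 and 1.69, while ACF1 gave 10.9 and 3.55 and GAL4-HP1 gave 5.82 and 1.37. GAL4-ACF1 was below GAL4 in both replicates, while ACF1 overlapped GAL4. The fitted log2 fold change with GAL4-ACF1 was -3.40 ± 0.782 (edgeR, adjusted p = 0.0231). At 15024634 expression was 19.9 and 27.2 in GAL4, 3.03 and 2.16 with GAL4-ACF1, 15.8 and 7.19 with ACF1, and 17.1 and 2.26 with GAL4-HP1. Replicates of GAL4-HP1 were far apart there, and those of GAL4-ACF1 were close. The fitted log2 fold change with GAL4-ACF1 was -2.95 ± 0.713 (adjusted p = 0.0302).

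At 15543740 the GAL4 libraries held 183 and 198 cDNA counts and those of GAL4-ACF1 held 1 and 0, where its gDNA counts were 2698 and 1083. In expression units it was 14.6 and 6.28 in GAL4, 0.0379 and 0 with GAL4-ACF1, 1.22 and 13.3 with ACF1, and 0.889 and 3.45 with GAL4-HP1. Only the GAL4-ACF1 and GAL4-HP1 pairs were wholly below the GAL4 pair. With 1 read left, the ratio was 550-fold lower, with a counting interval from 75.8 to 21722 (edgeR, adjusted p = 0.0190).

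The other pair lay farther away. At 5570520 expression was 24.9 and 20.0 in GAL4, 1.08 and 1.63 with GAL4-ACF1, 7.11 and 8.37 with ACF1, and 2.76 and 2.28 with GAL4-HP1, so the order of the conditions was the same in both replicates. The fitted log2 fold change with GAL4-ACF1 was -3.91 ± 0.903 (edgeR, adjusted p = 0.0231). The reporter at 17957239 fell outside the rule for naming reporters and is given to complete the 7. Its values were 38.6 and 69.2 in GAL4, 5.72 and 13.5 with GAL4-ACF1, 14.4 and 7.05 with ACF1, and 7.34 and 4.74 with GAL4-HP1, so every value of the other conditions was below GAL4. The fitted log2 fold change with GAL4-ACF1 was -2.28 ± 0.52 (edgeR, adjusted p = 0.0231).

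Of the 7 positions, 5 fell between 13865484 and 15543740, a stretch that held 11 reporters, of which 9 were tested and 7 were below GAL4. The reporters of the stretch that were not tested, at 14190658 and 15172916, were at 0 in both GAL4-ACF1 libraries. It was marked out after the values were seen, so its share of 55.6% passing has no test and is given beside the 6.54% of the table only as a description. Between 13865484 and 17957239 there were 29 reporters, with 23 tested, 19 lower and 6 past the threshold.

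Not every 2L reporter was lower with GAL4-ACF1. Among the 55 tested reporters that had 50 or more cDNA counts in all libraries, the highest log2 fold change was 1.33, at 8208430, where expression was 432 and 179 in GAL4 and 1188 and 348 with GAL4-ACF1. The GAL4-ACF1 values were higher in each replicate but the ranges overlapped (edgeR, adjusted p = 0.495). At 18991055 the values were 229 and 340 in GAL4 and 279 and 1090 with GAL4-ACF1 (adjusted p = 0.345), and at 4958450 they were 141 and 80.9 in GAL4 and 401 and 54.2 with GAL4-ACF1 (adjusted p = 0.935). The mean GAL4 expression of all 3 sites was above the upper quartile cut of 101. The reporter at 9997212, which dominated the cDNA counts, was at 161 and 202 in GAL4, 244 and 234 with GAL4-ACF1, 276 and 231 with ACF1, and 95.8 and 63.9 with GAL4-HP1. Its GAL4-ACF1 and ACF1 values were above both GAL4 values and its GAL4-HP1 values below them, and the fitted log2 fold change of 0.59 ± 0.256 with GAL4-ACF1 did not pass (edgeR, adjusted p = 0.172).

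The size of the GAL4-ACF1 difference varied with the expression of a reporter in GAL4. From the lowest to the highest quartile the 2L medians of the log2 fold change were -2.80, -1.59, -1.76 and -0.52, over 33, 26, 22 and 20 reporters. On the other arms they were -2.17, -1.82, -1.25 and -0.54. In the highest quartile both sets were close together. In the lowest, replicate 1 alone gave -2.57 on 2L and -2.0 on the other arms, while replicate 2 alone gave -1.69 and -1.70. The lower 2L median was thus seen with the replicate 1 libraries of both conditions and not with those of replicate 2. To keep 1 GAL4 replicate out of both axes, expression was read from 1 replicate and the fold change computed with the other, which gave Pearson's r of 0.35 and 0.39 across the 2L reporters and 0.33 and 0.45 across those of the other arms. Reporters are not independent replicates, and the points share the libraries.

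Along the arm, reporters between 12 and 15 Mb had the lowest GAL4-ACF1 values. In 7 windows of 3 Mb, from the tip toward the centromere, the median log2 fold change was -1.63, -1.90, -1.11, -1.37, -2.81, -2.01 and -2.19, over 15, 11, 15, 14, 13, 19 and 14 reporters. All 13 tested reporters of the 12 to 15 Mb window were below GAL4, with log2 fold changes from -5.20 to -0.82, and its median was -2.69 with replicate 1 alone and -2.44 with replicate 2 alone. The first window was at -2.38 and -1.25 in the replicates. The 18 to 21 Mb window was at -2.57 and -1.15, and the 6 to 9 Mb window at -0.47 and -1.20. Only the 12 to 15 Mb window was below -2 in each replicate.

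Set among the 33 windows of the 5 arms with at least 10 tested reporters, the 12 to 15 Mb window of 2L ranked 2nd from the lowest, after the first 3 Mb of X at -2.87. It was 1 of 2 windows in which every tested reporter was below GAL4. The window was not chosen beforehand and its rank has no test. Without it the 2L median was -1.53 and the difference from the other arms -0.19 in place of -0.32. In GAL4 the median expression of all reporters of the window was 42.7, against 50.9 between 9 and 12 Mb and 9.78 in the last window. Over the tested reporters alone these medians were 52.5, 55.0 and 15.3. How the fold changes of the window went with GAL4 expression was not tested.

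ACF1 without the DBD was compared with GAL4 to read the effect of ACF1 that was not tethered. This comparison uses the same GAL4 libraries. The median log2 fold change on 2L was -0.75 (quartiles -1.60 and 0.21), and 72 of 101 reporters were below GAL4 (71.3%). Scaled to library totals it was -1.0. It was -0.33 with replicate 1 and -0.65 with replicate 2 (mean -0.49 ± 0.228, SD, n = 2). On the other arms the median was -0.38 and in the whole table -0.40. The log2 median of the arm was 4.37 and 3.97 with ACF1, below both GAL4 libraries, a difference of -0.43 with an exact permutation p = 0.333. Relative to the other arms of the same library, 2L was at -0.65 ± 0.182 with ACF1 and -0.66 ± 0.0894 with GAL4 (SD, n = 2 each), and these groups overlapped (exact permutation p = 1).

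With ACF1, 1 of the 101 tested 2L reporters passed (0.99%) and 3 of 642 in the table (0.467%), and an unadjusted p under the threshold was found for 10 on 2L and 64 in the table (9.97%). By quartile of GAL4 expression the 2L medians were -1.39, -0.76, -0.40 and -0.01, and those of the other arms -0.62, -0.74, -0.24 and -0.07. With expression and fold change taken from different GAL4 replicates, r was 0.48 and 0.52 on 2L and 0.24 and 0.34 on the other arms. Between 12 and 15 Mb the ACF1 median was -0.91, against -2.81 with GAL4-ACF1. Between 6 and 9 Mb it was 0.16, with 0.17 in replicate 1 and -0.97 in replicate 2, so its sign turned between replicates.

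GAL4-ACF1 was also set directly against ACF1, from which the GAL4 libraries drop out. The median log2 ratio on 2L was -1.04, with -1.10 in replicate 1 and -0.83 in replicate 2, and 79 of 101 reporters were lower with the DBD (78.2%). Scaled to library totals the median was -0.60. The other arms had -0.96 and the whole table -0.99. The log2 medians of the arm did not overlap between the conditions and differed by -1.27 (exact permutation p = 0.333). In edgeR 0 of 101 reporters passed on 2L and 1 of 642 in the table (0.156%). At an unadjusted p under the threshold the numbers were 11 and 69 (10.7%), and DESeq2 called 2 on 2L with the same library sizes.

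GAL4-HP1 served as the tethered silencer. The median log2 fold change on 2L was -1.72 (quartiles -2.56 and -0.73), 92 of 101 reporters were below GAL4 (91.1%) and 40 (39.6%) were lower by at least 4-fold. These values rest on the authors' scaling, and with library totals in its place the median was -0.90. The replicates gave -1.31 and -1.93 (mean -1.62 ± 0.443, SD, n = 2). On the other arms the median was -1.40, with 90.8% lower, and in the whole table it was -1.47. The log2 median of the arm was 3.72 and 2.82, a difference of -1.33 from GAL4 (exact permutation p = 0.333), and relative to the other arms 2L was at -0.57 ± 0.0122 against -0.66 ± 0.0894 in GAL4 (SD, n = 2 each, exact permutation p = 0.333). That is a change of 0.085, while the difference of 2L from the other arms in median fold change was -0.32. The sign thus depended on the measure.

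With GAL4-HP1, 0 of 101 reporters on 2L passed in edgeR and 2 of 642 in the table (0.312%). Unadjusted p-values were under the threshold for 11 on 2L and 61 in the table (9.5%), and DESeq2 with the same library sizes called 1 on 2L. With library sizes from the authors' scaling, 26 on 2L were under it and 1 passed. In simulated counts for GAL4-ACF1 against GAL4, 22% of reporters with a true log2 change of -2 passed. A reporter that did not pass may thus still have changed. Along the arm the GAL4-HP1 medians were -1.21, -1.72, -1.02, -1.20, -1.55, -2.27 and -2.58. The 18 to 21 Mb and 15 to 18 Mb windows of 2L were the lowest and second lowest of the 33, and the 12 to 15 Mb window ranked 12th. In the replicates the 18 to 21 Mb window was at -1.94 and -2.92, and the 15 to 18 Mb window at -1.91 and -1.70, where other windows were lower in replicate 2. The median GAL4 expression of their tested reporters was 15.3 between 18 and 21 Mb and 21.02 between 15 and 18 Mb. Of the 33 windows, only that between 15 and 18 Mb of X had a GAL4 median below 15.3, at 11.3. The 6 to 9 Mb window of 2L, at 19.7, also lay below 21.02. With GAL4-HP1 the X window was at -1.14 and the 6 to 9 Mb window at -1.02. How the GAL4-HP1 change went with GAL4 expression across windows was not tested.

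By quartile of GAL4 expression, GAL4-HP1 gave 2L medians of -1.88, -1.87, -1.22 and -1.44. The lowest and highest quartiles lay closer together than with GAL4-ACF1, a difference that was not tested. On the other arms the GAL4-HP1 medians were -1.19, -1.65, -1.49 and -1.25. With different GAL4 replicates for expression and fold change, r was 0.17 and 0.24 on 2L and 0.09 and 0.21 on the other arms.

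Some of the closest neighbours on the arm were unlike in GAL4. The closest pair, at 7453449 and 7455985 in opposite orientations, had GAL4 values of 32.2 and 51.4 for the first and 5.11 and 8.62 for the second, 2.61 log2 units apart. With GAL4-ACF1 the first was at 12.5 and 15.4, below GAL4 in both replicates, and the second at 6.98 and 1.95, which overlapped its GAL4 values. The reporters at 496424 and 502466, 6042 bases apart and both in minus orientation, had 210 and 56.9, and 25.8 and 38.2. With GAL4-ACF1 they had 40.0 and 30.0, and 0.170 and 1.38. Both were lower in each replicate, and the second, at a fitted log2 fold change of -5.03 ± 1.75, did not pass (edgeR, adjusted p = 0.0943). The pair at 2684192 and 2687734 was low in GAL4 at both sites, and with GAL4-ACF1 the first was at 0 and 0 and the second at 14.7 and 1.5.

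Over all pairs of 2L reporters, the median absolute log2 difference in GAL4 expression was 2.06 for the 5 pairs under 10000 bases, 1.5 for the 62 pairs from 10000 to under 100000, 2.07 for the 596 pairs up to 1000000 and 2.06 for the 6718 pairs farther apart. The 5 closest pairs gave 2.65 in replicate 1 and 1.16 in replicate 2. The class from 10000 to under 100000 was at 1.66 and 1.54 and that of the farthest pairs at 2.09 and 2.16. Pairs of the nearer of these classes were thus more alike in both replicates, a difference that was not tested. The differences in the GAL4-ACF1 log2 fold change were 1.59, 1.75, 1.87 and 1.81 in the same order of distance. The pairs share reporters and are not independent.

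Position along the arm and orientation went with small differences. Across 2L reporters, r of position with log2 GAL4 expression was -0.18, and r with the log2 fold change was -0.21 for GAL4-HP1, -0.14 for GAL4-ACF1 and -0.12 for ACF1, as descriptions over reporters that share libraries. The GAL4 medians were 23.4 and 18.9 for plus and 22.5 and 14.9 for minus reporters. The GAL4-ACF1 median log2 fold change was -1.56 for plus and -1.87 for minus, with replicate values of -1.36 and -1.32 against -2.38 and -1.15, so the order turned between replicates.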

How the data were processed

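The authors deposited whole barcode read counts for 8 cDNA and 8 gDNA libraries, not normalized, with the position of each integration. They also deposited expression, a ratio of cDNA to gDNA counts multiplied by 1 factor per library that includes the spike-in. The factor was checked to be constant within each library. The counting software is not given in the sources used here. Positions are in dm3 per the labels, and no annotation of that build was used. No barcode read of the spike-in pool was among the counts.

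Fold changes used the deposited expression. The filter kept 642 reporters with mean expression above 0 in all 4 conditions. Reporters were tested with edgeR 4.0.16 in R 4.3.3 (16 libraries, 8 groups, two-sided). The spread of each reporter was estimated over all groups together. DESeq2 1.42.0 was an alternative, and the edgeR test was checked on simulated counts. For GAL4-ACF1 against GAL4 it recovered 22% of reporters given a log2 change of -2 and 58% of those given -4. No 2 libraries held identical counts. Other arms were taken without 2R and 3R below 2 Mb, 3L from 22 Mb and X from 20 Mb. The reporters named were up to 6 past the threshold with at least 50 counts, the 3 highest and 3 lowest in GAL4, the first and last, the 3 closest pairs, up to 4 at 0 with GAL4-ACF1 and the 3 least lowered. The highest and lowest in GAL4 were taken among reporters above 0 in both GAL4 cDNA libraries with at least 50 counts in each GAL4 gDNA library. Members, rules and windows were chosen with earlier results of these data known. Alternatives were other scalings, filters, a pseudocount of 1, other sets of arms, a replicate block and leaving out each replicate.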

Additional observations from a re-analysis of the deposited data

How the results depend on the processing

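Over the alternatives run, the median 2L log2 fold change kept its sign in all 4 comparisons, though it was not rescaled by TMM or the median of ratios. It was -1.28 for GAL4-ACF1 over reporters above 0 in every cDNA library, and -1.63 to -1.19 with each replicate left out. For ACF1 it was -1.0 with library totals as scaling, -0.27 over reporters above 0 everywhere, -0.25 with at least 10 counts and -0.65 to -0.33 with a replicate left out. For GAL4-HP1 it was -0.90 with library totals and -1.93 to -1.31 with a replicate left out, and for GAL4-ACF1 against ACF1 it was -0.60 with library totals, -0.84 with the pseudocount and -1.10 to -0.83. The difference of 2L from the other arms was less stable. For GAL4-ACF1 it went from -0.36 to 0.0205 with a replicate left out. For ACF1 the difference was -0.37 in the main setting. It was -0.52 without gDNA, -0.30 with the pseudocount, -0.20 with the replicate block, -0.0334 above 0 everywhere, -0.047 with at least 10 counts, -0.40 for whole arms, -0.44 for autosomal arms and -0.14 to -0.13 with a replicate left out. For GAL4-HP1 the difference was -0.32 in the main setting. It was -0.25 without gDNA, -0.26 with the pseudocount, -0.15 with the block, 0.0401 above 0 everywhere, 0.0407 with at least 10 counts, -0.37 for whole arms and -0.16 to -0.10 with a replicate left out. Calls for GAL4-ACF1 on 2L were 4 with TMM factors (1 higher), 16 with DESeq2 at the same library sizes, 9 with its median-of-ratios factors (3 higher), 18 without the filter, and 0 to 15 with a replicate left out. TMM and the median of ratios moved the median fitted value of all reporters from -1.23 to -0.48 and -0.11 for GAL4-ACF1, from -0.63 to -0.16 and -0.0048 for ACF1, and from -0.64 to -0.08 and, with its sign turned, 0.026 for GAL4-HP1. Of the 7 called, 3, 7, 5 and 7 were among those of TMM, both DESeq2 settings and no filter. For ACF1 the calls were 0 with TMM, 0 with the authors' scaling, 3 and 3 with DESeq2, 5 without the filter, 2 above 0 everywhere, 0 with cDNA alone and 0 to 0 with a replicate left out. For GAL4-HP1 they were 1 with the authors' scaling and 1 with DESeq2, and for GAL4-ACF1 against ACF1 2 and 1 with DESeq2, 1 without the filter and 0 to 4 with a replicate left out (4 without GAL4-ACF1 replicate 2, 1 without replicate 1). Deviations of same-numbered replicates correlated between conditions at -0.0087 to 0.152 in expression, 0.0371 to 0.145 in cDNA and -0.024 to 0.0293 in gDNA, not over 0.1 in every pair, so the numbers were not taken to pair the samples, and with a replicate block the calls were 9, 1, 0 and 0. The cause of these changes was not tested. The effect of depth was not tested.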
